A study of Mus musculus with 6 samples.

Results

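The cytosolic ribosomal proteins were followed here in liver RNA of mice on a high-fat diet, comparing animals labelled as lacking G3BP1 in the liver with floxed controls. The genes were chosen by name alone, as the protein-coding genes whose symbol is Rpl or Rps and a number, with Rpsa, Rplp0, Rplp1 and Rplp2, leaving out the Rps6k kinases, Rps27a and names ending in -ps. This gave 79 of 35082 genes, 30 of the small (40S) and 49 of the large (60S) subunit. The libraries came from 6 male mice that began the diet at 8 weeks of age and stayed on it for 20 weeks. The 3 controls were G3BP1flox/flox (WT_HFD), and the 3 others were Alb-cre; G3BP1flox/flox (LKO_HFD), in which the albumin promoter drives Cre in hepatocytes. Which other cells of the liver kept the gene is not shown by the labels. All 6 animals carried the floxed alleles, and each library was made from poly-A RNA of whole liver.

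Each ribosome carries a copy of nearly every ribosomal protein, and these mRNAs are among the most abundant of any growing cell. Most begin with a 5′ terminal oligopyrimidine (TOP) tract, through which mTORC1 and LARP1 set how well they are translated and how long they last. G3BP1 is an RNA-binding protein that seeds stress granules and binds the small ribosomal subunit.

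Libraries held 20899135 to 21750007 estimated counts, so depth hardly differed between animals. G3bp1 itself was at 44.1, 34.8 and 40.5 CPM (estimated counts per library, scaled to a common total with TMM factors) in controls 1 to 3. It was at 44.0, 30.0 and 31.5 CPM in the libraries labelled knockout 1 to 3. The groups overlapped, with a log2 difference of −0.18 (SE 0.22), so the message counted over the whole gene did not check the genotype, and the second group is therefore called knockout-labelled. The files do not show which exons were floxed. The hepatocyte markers Alb, Apoa1 and 8 others were all measured, and together they made 90350 to 121000 CPM in controls and 62070 to 107600 CPM in knockout-labelled livers.

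Ribosomal protein mRNAs were lower on average in the knockout-labelled livers, by about the same amount in both subunits, but no single gene passed the test. Of the 79 genes, 76 had enough counts to be tested, and 75 of these had a log2 difference (knockout-labelled minus control) below 0, against 48.4% of the 12497 genes tested in all. The median was −0.46, a fold of 0.728, with quartiles of −0.56 and −0.37, whereas the median of all tested genes was 0.01. The median was −0.46 over the 30 small subunit genes and −0.46 over the 46 large subunit genes. With edgeR's quasi-likelihood test and Benjamini-Hochberg adjustment over all tested genes, 0 of 76 passed an adjusted p of 0.05, as did 0 of all genes (0.0%), and the smallest adjusted p was 0.845. DESeq2 and limma voom also called 0 of the family, and called 12 and 0 of all genes. At an unadjusted p under 0.05 DESeq2 had 13 of the family, against 3.69% of all genes, and limma voom had 9, against 4.6%. With an offset for effective length the family's median was −0.41, with 73 of 76 below 0 and 10 lower without overlap, against 4.19% of all genes. With that offset only 2 of the 76 had an unadjusted edgeR p under 0.05, against 4.05% of all genes. Without the offset there were 7 of the 76 (9.21%) at that p, against 568 of all genes (4.55%). In 11 genes (14.5%) all 3 knockout-labelled values lay below all 3 controls, against 4.55% of all genes, and in 0 all lay above, against 4.79% of all genes. In a bulk sample, fewer cells of a type and less RNA per cell cannot be told apart.

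The lower level was carried by 2 of the 3 knockout-labelled livers. The 76 genes' median deviation from their own mean over the 6 libraries was 0.23, 0.31 and 0.31 on the log2 scale in controls 1 to 3. It was 0.28 in knockout-labelled liver 1, −0.28 in liver 2 and −0.76 in liver 3. Liver 1 therefore stood among the controls, liver 2 lower, and liver 3 lowest. Liver 3 had the lowest value of all 6 libraries in 70 of the 76 genes, and it lay below every control in 70 genes, against 25.6% of all tested genes. Liver 2 lay below every control in 58 genes, against 26.1% of all tested genes. Liver 1 lay within the control range in 47 genes, above it in 15 and below it in 14. Without knockout-labelled liver 1 the median was −0.78 and 58 genes did not overlap, against 17.2% of all genes in that fit, and still 0 of the 76 passed the adjusted threshold, whereas 3 of all genes did (0.0236%). An unadjusted p under 0.05 was then reached by 56 of the 76, against 15.8% of all genes. Without liver 3 the median was −0.24, with 72 of 76 below 0 (49.2% of all genes), 11 genes lower without overlap (6.79% of all genes in that fit) and 0 at an unadjusted p under 0.05 (2.25% of all genes).

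**Figure D1:**
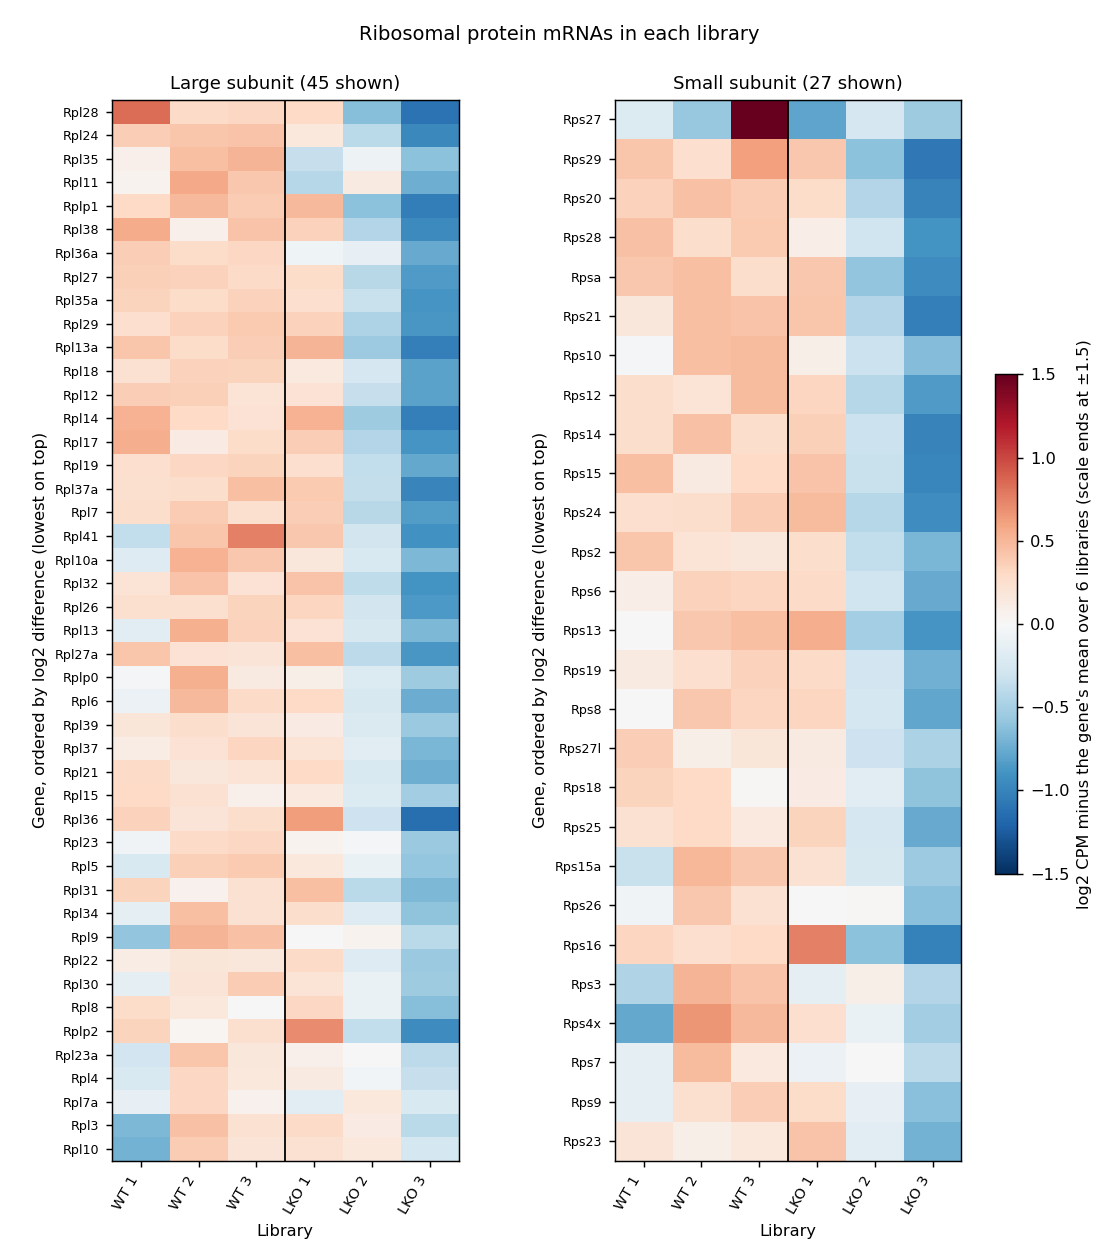
Level of tested ribosomal protein genes (rows; 72 of 76 shown) in the 6 libraries (columns; WT, floxed controls; LKO, knockout-labelled), as log2 CPM minus that gene's mean over the libraries, with large subunit genes on the left and small subunit genes on the right. Knockout-labelled liver 3 is the lowest column in 70 of 76 genes, and liver 1 resembles the controls in most rows.

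As a share of each library's estimated counts, which does not depend on the scaling factors, the 79 genes made 1.86%, 1.89% and 2.21% in controls and 2.34%, 1.57% and 1.203% in knockout-labelled livers. The highest and the lowest share both belonged to knockout-labelled animals. The means were 1.99% ± 0.194 (SD, n = 3) and 1.71% ± 0.583 (SD, n = 3), a difference of −0.28 percentage points that is smaller than the SD of the knockout-labelled group. Without knockout-labelled liver 1 the difference was −0.600 points, and without liver 3 it was −0.0298 points. Small subunit counts divided by large subunit counts gave 0.625, 0.615 and 0.616 in controls and 0.632, 0.599 and 0.604 in knockout-labelled livers, so the balance between subunits varied far less than the total. Other measures moved with the same libraries. Mitochondrially encoded genes made 7.41%, 7.64% and 7.22% of counts in controls and 7.57%, 9.19% and 10.2% in knockout-labelled livers, highest in livers 2 and 3. The part of this in the ribosomal protein result was not tested.

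Among large subunit genes, 8 did not overlap between groups, all lower in the knockout-labelled livers. Rpl24, which forms a bridge to the small subunit and whose mutation gives the Belly spot and tail mouse, was at 341, 352 and 357 CPM in controls and at 296, 200 and 135 CPM in knockout-labelled livers. Its controls lay within a narrow band and all 3 other livers lay below it. The log2 difference was −0.73 (SE 0.30), with an unadjusted edgeR p of 0.0386 and an adjusted p of 0.845. Rpl35, which lies beside the tunnel through which the new chain leaves the ribosome, was at 233, 302 and 313 CPM against 174, 210 and 144 CPM. It had the smallest unadjusted edgeR p of the 76 genes, 0.0197, for a log2 difference of −0.69 (SE 0.24). Here liver 1 was below the controls too, unlike in most of the family. The value did not hold per length. In liver 1, 59.3% of the gene's counts were on transcripts not typed protein-coding, against at most 0.844% in the other 5 libraries. With an offset for the deposited effective lengths the log2 difference was −0.06, and as deposited TPM liver 1 was the highest, at 210, 285 and 344 TPM in controls and 525, 270 and 198 TPM in knockout-labelled livers. Rpl36a was at 178, 168 and 171 CPM in controls and at 132, 126 and 81.5 CPM in knockout-labelled livers, a log2 difference of −0.60 (SE 0.24). Near-identical copies of Rpl36a held 25.3% of the summed counts in liver 1, against 11.2% to 13.4% in the other libraries. With copies added, liver 1 was at 177 CPM, against 189 to 202 CPM in controls. The log2 difference was then −0.50, and the unadjusted edgeR p went from 0.0337 to 0.0888.

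In the other 5 of these genes liver 1 lay only just under the controls. Rpl19, another bridge protein, was at 402, 417 and 424 CPM in controls and at 401, 262 and 198 CPM in knockout-labelled livers, a log2 difference of −0.53 (SE 0.29). Rpl35a was at 253, 243 and 255 CPM against 239, 159 and 108 CPM, and Rpl27 at 206, 205 and 197 CPM against 195, 121 and 89.8 CPM. Their log2 differences were −0.57 (SE 0.30) and −0.58 (SE 0.29). The groups were separate only by the small gap between the lowest control and liver 1. Rpl18 was at 253, 274 and 273 CPM against 239, 181 and 123 CPM, a log2 difference of −0.56 (SE 0.27). Rpl39, a small protein of the exit tunnel wall, was at 80.5, 85.5 and 81.2 CPM against 77.0, 61.2 and 48.3 CPM, a log2 difference of −0.41 (SE 0.22).

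The stalk proteins, which recruit the translation factors that use GTP, did not separate. Rplp1 was at 479, 543 and 507 CPM in controls and at 544, 254 and 189 CPM in knockout-labelled livers, with liver 1 above every control. Its log2 difference was −0.63 (SE 0.38). Rplp0, to which the other stalk proteins bind, was at 298, 436 and 331 CPM against 319, 261 and 208 CPM, a log2 difference of −0.44 (SE 0.26). Rplp2 was at 92.5, 74.9 and 86.3 CPM against 120, 56.8 and 38.1 CPM, a log2 difference of −0.24 (SE 0.39), and without liver 3 its sign turned to 0.06. Rpl11, which with Rpl5 and 5S rRNA forms the particle that can bind Mdm2, was at 194, 277 and 248 CPM against 138, 204 and 112 CPM. The groups overlapped, and the log2 difference was −0.66 (SE 0.28) at an unadjusted edgeR p of 0.0437. Rpl13, the gene nearest the median, was at 189, 307 and 271 CPM against 246, 180 and 133 CPM, with control 1 below liver 1.

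In the small subunit 3 genes did not overlap. Rps28, which lies where the mRNA leaves the ribosome, was at 118, 105 and 115 CPM in controls and at 93.6, 70.7 and 46.6 CPM in knockout-labelled livers, a log2 difference of −0.68 (SE 0.27) at an unadjusted edgeR p of 0.0341. Rps20, of the head of the subunit, was at 133, 142 and 137 CPM against 127, 77.3 and 52.4 CPM, a log2 difference of −0.68 (SE 0.31). In both, livers 2 and 3 were well below the controls and liver 1 was close to them. Rps10, which is ubiquitylated when ribosomes collide, overlapped at 151, 212 and 214 CPM against 164, 123 and 98.2 CPM, a log2 difference of −0.58 (SE 0.26). Rpsa, which is also known as the laminin receptor, was at 752, 774 and 682 CPM against 751, 375 and 295 CPM, a log2 difference of −0.64 (SE 0.36). Rps3, which lines the mRNA entry channel, was at 122, 237 and 225 CPM against 152, 177 and 123 CPM, with control 1 the lowest of all 6 libraries, and Rps15a, at 63.4, 113 and 106 CPM against 93.8, 67.6 and 54.7 CPM, also had control 1 below liver 1. Their log2 differences were −0.37 (SE 0.29) and −0.38 (SE 0.29).

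The remaining tested genes lay below 0 except for Rpl10. In the large subunit Rpl28 was the lowest, at −0.86, and in the small subunit Rps29 stood at −0.73; both were singled out after their values were seen. The value of Rpl28 was also unsteady. It was −0.69 with near-identical copies of the gene added and −0.11 with the effective length offset, which used the deposited effective lengths. Its deposited TPM was 1087, 582 and 784 in controls and 2164, 348 and 270 in knockout-labelled livers, highest in liver 1. With 1 fragment length setting for all 6 libraries, liver 1 was at 1581 TPM, still the highest. Rpl29, Rpl13a, Rpl12, Rpl14, Rpl17, Rpl37a and Rpl7 lay between −0.56 and −0.50, as did Rps14, at −0.54. Rps6, the substrate of S6 kinase, was at −0.45, and Rps19, the gene most often mutated in human Diamond-Blackfan anaemia, at −0.42. With the effective length offset Rps19 was at −0.02. In liver 1, 50.3% of the counts of Rps19 were on transcripts not typed protein-coding, against 7.94% to 17.0% in the other libraries. Its deposited TPM was 227, 210 and 270 in controls and 494, 201 and 164 in knockout-labelled livers, highest in liver 1. The smallest differences were those of Rpl4 and Rpl7a, both −0.17, Rpl3, −0.04, and Rpl10, at 0.03 (SE 0.29). Per length, as TPM (transcripts scaled to a common total per library), the tested genes spanned a mean over the 6 libraries of 39.9 TPM in Rpl10 to 1402 TPM in Rpl38. Rpl38, whose loss in mice gives the Tail-short skeleton, was followed by Rpl41, the smallest ribosomal protein, at 1383 TPM and by Rplp1 at 1250 TPM. The order of these 3 is not firm, since Rpl41 alone ran from 783 to 2110 TPM between libraries. The deposited TPM of knockout-labelled liver 1 also rests on another fragment length setting than the others, and with 1 setting for all 6 libraries Rpl41 led at 1380 TPM, before Rpl38 at 1354 and Rplp1 at 1251 TPM. In CPM, Rpl38 was at 323, 232 and 296 against 279, 162 and 114, and Rpl41 at 328, 565 and 715 against 560, 350 and 225, with log2 differences of −0.62 (SE 0.34) and −0.50 (SE 0.40).

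The 3 genes below the filter are copies known from other tissues. Rpl10l, a paralogue of Rpl10 used in the male germ line, had 0 counts in every library. Rpl39l, a paralogue of Rpl39 also known from testis, had 1 count in knockout-labelled livers 1 and 2 and 0 elsewhere. Rpl3l, the muscle paralogue of Rpl3, had 3, 0 and 0 against 1, 1 and 1. At this depth none of the 3 could be compared.

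Ribosomal protein mRNAs are short, and most other short mRNAs were also lower on average in the knockout-labelled livers. The length of the 76 tested genes, weighted by the counts of their transcripts, ran from 365 to 1992 bases with a median of 717, against 2724 for the other tested genes, and 61 of the 76 were of up to 1000 bases, as were 7.27% of the others. Among genes of up to 1000 bases the median log2 difference was −0.47 for the 61 ribosomal protein genes and −0.40 for the 903 others. For the 275 others that also had a mean of at least 50 CPM, it was −0.48, and 95.3% of them were below 0. Ribosomal protein genes of up to 1000 bases and abundant other mRNAs of that length thus had nearly the same median. The others here were all tested genes outside the name rule. They included near-identical copies such as Rps27rt, and ribosomal proteins such as Fau, Rps3a1 and Rps27a. The part of these in the medians of the others was not tested. For up to 600 bases the medians were −0.53 and −0.47, from 600 to 800 bases −0.46 and −0.45, and from 800 to 1000 bases −0.37 and −0.35. They parted only among the few longer ribosomal protein genes: −0.44 (10 genes) against −0.22 from 1000 to 1500 bases and −0.37 (5 genes) against −0.09 from 1500 to 2000 bases. The other genes went on to rise with length, to 0.03 from 2000 to 3000 bases, 0.13 from 3000 to 5000 and 0.18 above 5000.

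**Figure D2:**
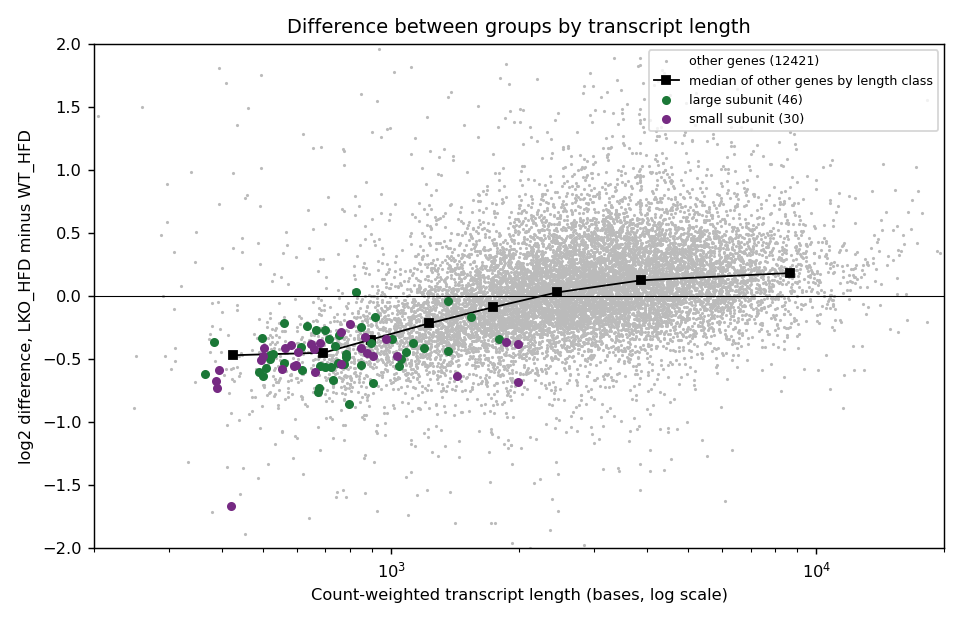
Log2 difference between the groups for each tested gene (vertical axis, knockout-labelled LKO_HFD minus control WT_HFD, ending at ±2, so that 31 genes fall outside) against transcript length (horizontal axis, log scale), with other genes in grey, their median per length class as squares, and ribosomal protein genes coloured by subunit. The ribosomal protein genes of up to 1000 bases lie around the medians of other genes of their length, −0.47 to −0.35.

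The same could be seen library by library. In other genes of up to 600 bases the median deviation was 0.37, 0.10 and 0.36 in controls and 0.28, −0.39 and −0.64 in knockout-labelled livers, where ribosomal protein genes of that length stood at 0.27, 0.28 and 0.33 against 0.33, −0.31 and −0.89. Both sets had livers 2 and 3 low and liver 1 among the controls. A smooth trend of each library on length and GC content was fitted to the other genes alone, these copies and proteins included. It gave a median of −0.40 for the ribosomal protein genes, below 0 in all 76. With that trend taken out, their median was −0.08 and 57 of 76 were below 0, against 49.3% of all genes. Lower without overlap were then 4 genes, against 3.99% of all genes, and 0 had an unadjusted p under 0.05, against 3.58% of all genes. Among them were Rps20, at −0.63, Rpl28, at −0.51, and Rpl24, at −0.36. The library medians became 0.05, 0.20 and −0.03 in controls and −0.02, 0.14 and −0.27 in knockout-labelled livers, so that liver 2 now lay within the control range and liver 3 stayed below it. Rpl36, one of the shortest at 383 bases, turned from −0.36 to 0.30, and Rplp2 and Rpl41 also turned above 0, to 0.14 and 0.02.

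**Figure D3:**
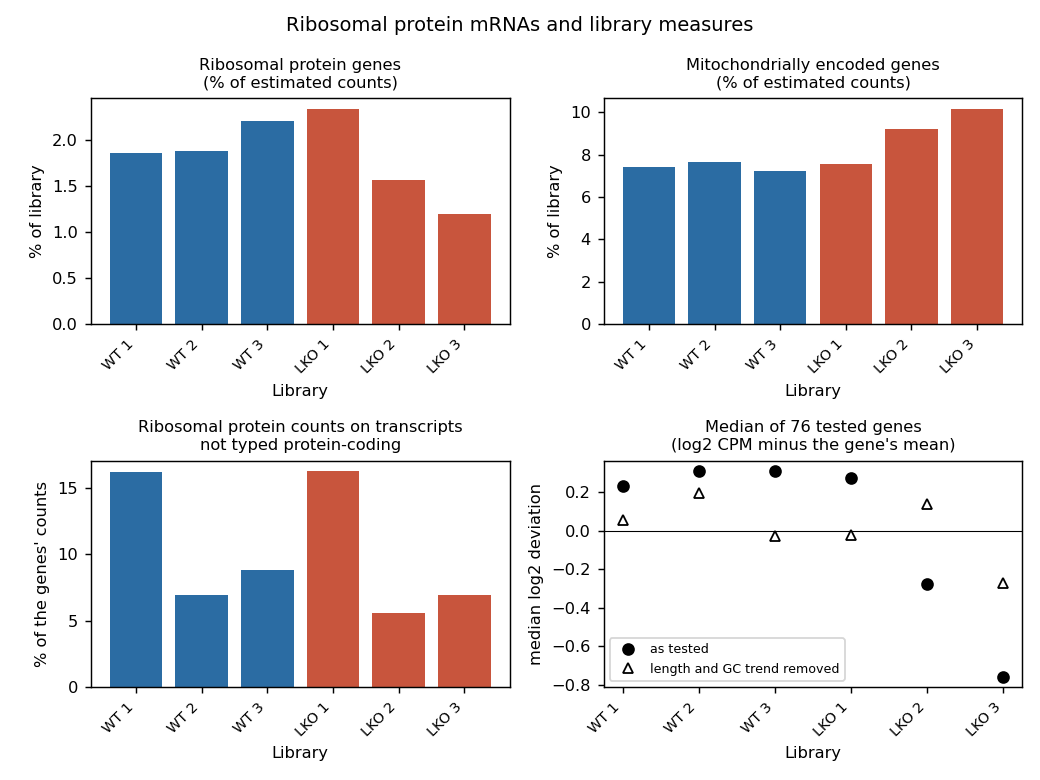
Measures of the 6 libraries (horizontal axes; blue bars, floxed controls WT; red bars, knockout-labelled LKO): the share of counts in ribosomal protein genes and in mitochondrially encoded genes, the share of ribosomal protein counts on transcripts not typed protein-coding, and the median log2 deviation of the 76 tested genes before (circles) and after (triangles) removal of the length and GC trend. Livers 2 and 3 have the lowest ribosomal protein and the highest mitochondrial shares, and after trend removal only liver 3 lies below the controls, at −0.27.

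Many ribosomal protein mRNAs have been copied back into the genome, and reads cannot be told apart where a copy is nearly identical. Of the 76 tested genes, 71 had at least 1 other annotated gene with a stretch of 200 or more bases at 95% identity or more, 551 such genes in all, and these copies took 9.38% to 10.5% of the family's counts in each library. For 16 genes the copies held over 10% of the summed counts. In the extreme case of Rpl10, whose protein joins the large subunit late near the site of peptide bond formation, the gene itself had 318, 653 and 663 counts in controls and 749, 697 and 549 in knockout-labelled livers. Rpl10-ps3 on chromosome 9, annotated as protein-coding and identical over 737 aligned bases, had 13402, 14639 and 14122 against 15747, 9813 and 8635. The copies held 95.5% of the sum, and with them added the log2 difference went from 0.03 to −0.54, into the middle of the family. Rps27, a zinc-finger protein, went the other way. It had 127, 96 and 840 counts against 104, 148 and 128, so that control 3 alone set its log2 difference of −1.67 (SE 0.71), the lowest of all. Rps27rt on chromosome 9 had 5222, 7567 and 6672 against 7818, 6792 and 4329, and for the sum the difference was −0.35.

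The split between a gene and its copy also changed from library to library. For Rpl11, the processed pseudogene Gm10288 on chromosome 3 had 2022, 692 and 1155 counts in controls and 3116, 228 and 406 in knockout-labelled livers. For Rpl35, Gm2000 on chromosome 1 had 1517, 131 and 170 against 2735, 35 and 67. In both genes control 1 and knockout-labelled liver 1 gave most to the copy, and in liver 1 both genes lay below every control. With copies added, the log2 difference of Rpl11 went from −0.66 to −0.58 (edgeR, unadjusted p = 0.08) and that of Rpl35 from −0.69 to −0.54 (edgeR, unadjusted p = 0.0857). Rps16, whose tail reaches the decoding centre, showed the reverse: Rps16-ps2 had 1505, 1889 and 2292 counts against 175, 1275 and 826. Liver 1 gave the copy least there, and the difference went from −0.37 to −0.68.

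The first 60 bases of the coding sequence show how alike the loci are: they are the same letters in Rpl11 and Gm10288, and likewise in Rpl35 and Gm2000. In Rps7 and Gm6472, on chromosome X, a 60-base stretch differs at a single base, shown in capitals (G21A, counted from the first base shown). Sequences are from the GENCODE M21 transcripts, written 5′ to 3′.
Rpl11 and Gm10288: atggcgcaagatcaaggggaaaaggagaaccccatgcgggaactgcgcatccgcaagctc
Rpl35 and Gm2000: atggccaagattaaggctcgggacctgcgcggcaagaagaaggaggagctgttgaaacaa
Rps7: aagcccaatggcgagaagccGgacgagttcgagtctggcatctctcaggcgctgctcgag
Gm6472: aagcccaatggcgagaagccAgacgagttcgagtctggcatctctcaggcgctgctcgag

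Summing copies left the family where it was. The median was −0.47 and all 76 genes were below 0, against 48.4% of all genes in that fit. Lower without overlap were 13 genes, against 4.55% of all genes, and 10 of them were among the 11 found without copies. The gene that lost its separation was Rps20, at 141, 155 and 149 CPM in controls and 158, 82.0 and 56.0 CPM in knockout-labelled livers once copies were added, with liver 1 above every control. An unadjusted edgeR p under 0.05 was then left in Rpl24 alone, 1.32% of the family against 4.52% of all genes. The largest departures from the family in both directions, Rps27 and Rpl10, were thus both genes with over 95% of their summed counts on copies.

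**Figure D4:**
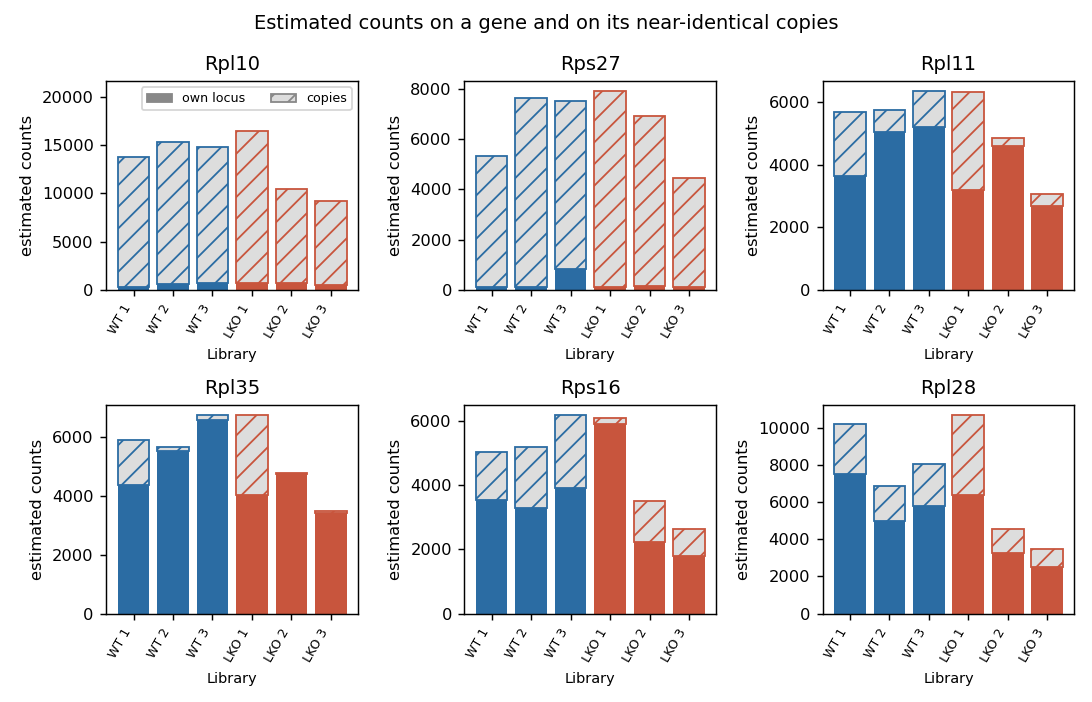
Estimated counts (vertical axes) on 6 ribosomal protein genes (solid) and on their near-identical copies (hatched) in the 6 libraries (blue, floxed controls WT; red, knockout-labelled LKO). Nearly all counts of Rpl10 and Rps27 lie on copies, 95.5% and 96.4%, and in Rpl11 and Rpl35 the hatched part is largest in control 1 and knockout-labelled liver 1.

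Counts also fell on transcripts that do not encode the protein. Transcripts typed protein-coding held 83.9%, 93.0% and 91.2% of the family's counts in controls and 83.8%, 94.4% and 93.1% in knockout-labelled livers. Control 1 and knockout-labelled liver 1 were the low ones, as they were for other genes (92.7% and 92.4%, against 94.7% to 96.3% in the other 4 libraries). Transcripts with a retained intron held 7.99%, 3.03% and 4.24% against 7.36%, 2.84% and 3.76%, and those typed as targets of nonsense-mediated decay 6.60%, 3.55% and 3.97% against 5.63%, 2.30% and 2.59%. In 26 of the 76 genes these same 2 libraries had the highest share on other types, and in 15 genes the other types held over 20%. Rps16 had 77.0% of its counts on retained-intron transcripts, and Rps20 55.1%, which its weighted length of 1984 bases, among the longest of the family, includes. Counting protein-coding transcripts alone gave a median of −0.47 and 12 genes lower without overlap, against 4.6% of all genes.

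Within the family, control 1 had a profile of its own. Relative to the median of the family in each library, 19 genes were more than 0.3 lower on the log2 scale in control 1, against 1 in each of controls 2 and 3 and 5 to 7 in the knockout-labelled livers. The lowest were Rps4x, at −0.996, Rpl10, at −0.93, Rpl3, which borders the peptidyl transferase centre, at −0.91, Rpl9, at −0.82, and Rps3, at −0.68, chosen after their values were seen. Rps4x was at 131, 351 and 311 CPM in controls and at 264, 207 and 154 CPM in knockout-labelled livers. Control 1 was the lowest of the 6 libraries there, and without control 1 the count of the family's genes lower without overlap went from 11 to 31, against 12.9% of all genes in that fit.

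**Figure D5:**
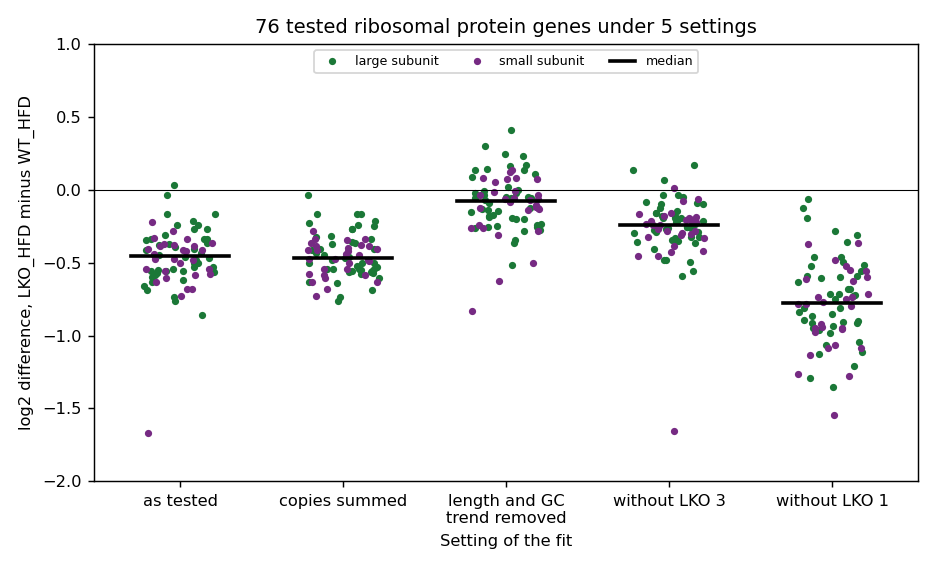
Log2 difference between the groups (vertical axis, knockout-labelled LKO_HFD minus control WT_HFD) of the 76 tested ribosomal protein genes, 1 point each, under 5 settings of the fit (horizontal axis), with the median as a bar. The median is −0.46 as tested, −0.47 with copies summed, −0.08 with the length and GC trend removed, −0.24 without knockout-labelled liver 3 and −0.78 without liver 1.

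Promoters of the family share features that the choice by name did not use. RefSeq listed a start on GRCm38.p6 for 57 of the 76 tested genes. From 100 bases before to 50 after the start, CGGAAG, the core bound by ETS factors such as GABPA, stood on either strand in 52.6% of them, against 13.4% of other genes' promoters. CTTTCC, also on either strand, stood in 42.1% against 15.0%. TATAAA was about as frequent as elsewhere, in 8.77% against 8.08%. A run of 8 or more C or T on the gene's strand, within 30 bases of the start, was found in 57.9% against 25.7%, and this run can overlap CTTTCC. Genes with and without either feature had similar medians: the median log2 difference was −0.47 in the 30 genes with CGGAAG and −0.44 in the 27 without, and −0.45 in the 33 with the run and −0.44 in the 24 without.

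The 6 genes below, whose groups did not overlap, show both kinds of start. Each line gives 30 bases before and 30 from the start, 5′ to 3′ on the gene's strand, with the pyrimidine run in capitals where there is one. They lie at chr2:39005102-39005161 (minus strand, Rpl35), chr16:33056452-33056511 (plus, Rpl35a, 1 of 3 listed starts), chr7:45718041-45718100 (plus, Rpl18), chr16:55966245-55966304 (plus, Rpl24), chr17:33824533-33824592 (minus, Rps28) and chrX:134585624-134585683 (plus, Rpl36a).
Rpl35: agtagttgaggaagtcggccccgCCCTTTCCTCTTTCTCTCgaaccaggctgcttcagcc
Rpl35a: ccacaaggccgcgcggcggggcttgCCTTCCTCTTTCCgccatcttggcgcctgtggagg
Rpl18: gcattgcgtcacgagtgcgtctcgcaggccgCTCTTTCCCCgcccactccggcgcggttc
Rpl24: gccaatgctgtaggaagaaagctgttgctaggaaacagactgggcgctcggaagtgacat
Rps28: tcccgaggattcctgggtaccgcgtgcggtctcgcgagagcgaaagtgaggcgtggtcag
Rpl36a: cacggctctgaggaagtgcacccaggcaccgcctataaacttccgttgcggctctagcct
In Rpl35 and Rpl35a the run spans the listed start, and in Rpl18 it begins at base 2 of the transcript. The listed starts of Rpl24, Rps28 and Rpl36a have no run of that length within this window.

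Ribosomal proteins that the naming rule leaves out also had differences below 0. Rps3a1, Rps27a, Fau and Rack1, further proteins of the small subunit, had log2 differences of −0.52, −0.48, −0.55 and −0.36, with 4 of 4 below 0 and overlap in each. The paralogues Rpl7l1, Rpl22l1, Rpl36al and Rps27rt were at −0.11, −0.36, −0.41 and −0.30.

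The lists of the machinery around the ribosome had medians nearer 0, and these differences from the family were not tested. Of 15 other mRNAs of the translation machinery with a TOP tract, 9 were below 0 and 6 above. Their median was −0.05, and 0 passed the test. The genes with the smallest p were Eef1d, of the elongation factor 1 complex, at −0.50 (SE 0.29) and Btf3, of the nascent chain complex, at −0.41 (SE 0.24). Btf3 was the only gene of the 15 lower without overlap, against 4.55% of all genes. Of 45 genes of rRNA synthesis and ribosome assembly, 29 were below 0, with a median of −0.05 and 0 passing; 3 were lower and 1 higher without overlap, against 4.55% and 4.79% of all genes. Riok2, a kinase of late small subunit maturation, was lower without overlap, at −0.48 (SE 0.19). In Nhp2, of the box H/ACA particles that guide pseudouridylation, the groups overlapped, at −0.61 (SE 0.27). The 5 chaperones of ribosomal proteins had a median of −0.14, with 4 below 0 and 0 passing, Bccip at −0.22 and Aamp at −0.21. Of 19 genes that control ribosomal protein mRNA or respond to surplus protein, 13 were above 0, with a median of 0.13 and 0 passing. Tial1, which binds TOP mRNAs under starvation, was higher, at 23.6, 21.4 and 19.3 CPM against 28.4, 33.8 and 25.6 CPM. It was the only gene of the 19 without overlap, where 4.79% of all genes were higher without overlap. Mdm2, the p53 ligase, had a log2 difference of 0.51 (SE 0.26). The lists differed in length as they did in level: their median lengths were 1506, 2785, 1908 and 4251 bases in this order.

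Mitochondrial ribosomal proteins, which also have short mRNAs but belong to another ribosome, also lay mostly below 0. Of 75 genes, 70 were below 0, against 48.4% of all genes, with a median of −0.34. Lower without overlap were 15, against 4.55% of all genes, and 0 passed the test. Their median length was 1213 bases, and with the length and GC trend removed their median was −0.09, close to the −0.08 of the cytosolic proteins.

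Markers of some other cell types lay mostly below 0 too. All 11 Kupffer cell and macrophage markers were below 0, with a median of −0.61, and they summed to 259 to 811 CPM in controls and 259 to 368 CPM in knockout-labelled livers. The 5 tested of 6 red blood cell markers were below 0, with a median of −0.97, and the list summed to 727 to 1678 CPM against 439 to 1106 CPM. T and NK cell markers were below 0 in 6 of 7 tested and summed to 5.54 to 17.0 CPM against 3.19 to 10.7 CPM, and neutrophil markers in 2 of 3 tested, at 3.07 to 12.5 CPM against 2.43 to 6.99 CPM. Sinusoidal endothelial markers, below 0 in 3 of 7, summed to 121 to 196 CPM against 134 to 198 CPM, stellate cell markers, also 3 of 7, to 88.5 to 277 CPM against 133 to 230 CPM, cholangiocyte markers, 3 of 4 tested, to 35.3 to 54.3 CPM against 26.8 to 43.5 CPM, and B and plasma cell markers, 1 of 5 tested, to 8.00 to 16.3 CPM against 5.49 to 21.5 CPM. In every one of these lists the summed ranges of the groups overlapped, and no marker was at 0 in all 6 libraries. Their part in the ribosomal protein result was not tested.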

How the data were processed

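Per the file headers, each deposited file holds estimated counts, TPM, length and effective length for 115221 transcripts, in Salmon's column layout. The submitters' processing notes name Bowtie2 2.2.5, RSEM 1.2.8, DESeq and GRCm38; how they relate to these files was not given in the sources used here. The deposited TPM values are scaled to 1000000 per library; the effective lengths imply a fragment length of exactly 250 bases in knockout-labelled liver 1, quantified with another setting than the others (242 to 262), which moved its TPM by a median ratio of 0.973 and that of Rpl28 by 1.37.

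Estimated counts were summed by gene with GENCODE M21 (113664 transcripts matched, 1557 did not) and rounded. Genes passing filterByExpr were scaled with TMM and tested with edgeR 4.0.16 (R 4.3.3), two-sided, Benjamini-Hochberg adjustment, threshold 0.05, all 6 libraries, no covariates; the test was checked on simulated data. Standard errors are the absolute log2 difference over the square root of F. The length and GC trend was a loess fit (span 0.5, degree 2) per library on genes outside the family, used as an offset. Copies were found with blastn 2.17.0. TPM is the deposited value; DESeq2 1.42.0 and limma 3.58.1 were alternatives. Strand use in counting is not stated, so overlapping and antisense genes cannot be told apart.

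Named genes are those without overlap, the 4 smallest p per subunit, those above 0, the 3 shortest, longest and most abundant, the stalk genes, Rpsa, the gene nearest the median and those below the filter; for other lists, component genes and the 2 smallest p. Members and lists were chosen with earlier results of these data known. Some genes that the rule takes are counted but not reported by name here.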

Additional observations from a re-analysis of the deposited data

How the results depend on the processing

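With 3 animals a group, a single liver decided much. No ribosomal protein gene passed the adjusted threshold under any setting, and at least 55 of the tested genes lay below 0 under each. The count over all genes went from 0 to 12 with DESeq2, 3 without knockout-labelled liver 1 and 2 when copies were also summed; leaving out 1 library gave 0 to 3. Genes of the family lower without overlap numbered 11 to 58 when 1 library was left out, the extremes without knockout-labelled liver 3 (6.79% of all genes) and without liver 1 (17.2%), and 61 without liver 1 with copies summed (17.2%). They numbered 0 with library totals (0.48% of all genes), where 0 of the family had an unadjusted edgeR p under 0.05, against 12.1% of all genes. In that fit the median of all genes moved to 0.27, and that of the family, −0.20, was −0.48 relative to it. With the trend removed, genes of the family lower without overlap numbered 4 (3.99% of all genes). They numbered 3 with copies also summed (3.99%) and 3 with a trend on length alone (3.9%). The medians were −0.079, −0.088 and −0.10, and the cause was not tested. The median ran from −0.78 to −0.24 and the share from −0.600 to −0.0298 points over left-out libraries.

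No label says that replicate numbers pair these animals. Over all genes, same-numbered libraries' deviations correlated at 0.20, 0.27 and −0.14, so the numbers were not taken as pairs, and control 2 correlated best with liver 3 (0.34); over the family alone the values were 0.60, 0.26 and 0.42. With the replicate number as a block the median was −0.54, 11 genes did not overlap, 13 of the family had an unadjusted p under 0.05 (5.75% of all genes) and 0 passed. The block with the trend removed left 4 without overlap (3.99%) and 2 at that p (4.57%).

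The alternatives gave 922 values, all but the family's summed TPM from 42 genes taken by the naming rule. Of these, 41 changed sign. With library totals these were Rplp2 0.0059, Rpl7l1 0.15, Bccip 0.047 and Aamp 0.050. With the length and GC trend removed they were Rpl36 0.30, Rpl41 0.017, Rplp2 0.14, Rpl22l1 0.13, Rpl36al 0.018, Rps27rt 0.074 and Bccip 0.0087. With length alone they were Rpl36 0.022, Rpl39 0.057, Rplp2 0.14, Rpl22l1 0.087, Rpl36al 0.057, Rps27rt 0.17 and Bccip 0.016. With the block and the length and GC trend removed they were Rpl13 0.0024, Rpl36 0.26, Rpl41 0.068, Rplp2 0.13, Rpl22l1 0.0033, Rpl36al 0.012, Rps27rt 0.076 and Bccip 0.0092. With copies summed and the trend removed they were Rpl10 −0.23, Rpl36 0.31, Rpl41 0.016, Rplp2 0.16, Rps27 0.21, Rpl22l1 0.13, Rpl36al 0.018 and Bccip 0.0085. Rpl10 ran from −0.23 (without control 1) to 0.24 (without control 2) over left-out libraries, and was −0.54 with copies summed, −0.84 when liver 1 was also left out and −0.0041 on protein-coding transcripts. Rplp2 ran from −0.84 to 0.064 over left-out libraries. The alternatives with copies, protein-coding transcripts or length alone were chosen after seeing the data.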
